A study of Danio rerio with 10 samples.

Results

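The apelin receptor genes of zebrafish, *aplnra* and *aplnrb*, were followed by RefSeq record, NM_001075105 for *aplnra* and NM_001030197 for *aplnrb*, 2 of 14720 records in the count table. All embryos were of the AB strain (WT AB), and all carried a caged fluorescein-dextran tracer (cFD). In the spt_cMO group the tracer was injected together with a caged morpholino against *spadetail* (spt cMO). The control group received cFD alone. Morpholinos are antisense oligonucleotides, and a cage keeps one inactive until light removes it. *spadetail* is a synonym of *tbx16*, whose T-box protein regulates genes in mesoderm progenitors. At 6 hours post-fertilization (hpf) ventral somite progenitors were illuminated at 360 nm through a 100 µm diaphragm, which released tracer and morpholino in the lit cells, and at 9 hpf, in late gastrulation, fluorescent cells were sorted. Each group had 5 libraries, each from cells of dissociated embryos sorted together, and the labels call them biological replicates. Control cells carried no morpholino, so loss of *spadetail* and other effects of a morpholino cannot be told apart.

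Apelin receptors are G protein coupled receptors that couple mainly to inhibitory G proteins. Their ligands are the secreted peptides Apelin and Apela, the second also known as Toddler or Elabela. In the zebrafish gastrula, Apela and its receptors are required for the normal movement of mesoderm and endoderm cells, and loss of *aplnrb*, as in the *grinch* mutant, reduces heart progenitors. The paralogs encode related receptors for the same ligands.

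Libraries held between 2036973 and 9374914 counts in spt_cMO and between 3365785 and 7968446 in control. RNA was read by CEL-seq, in which reads come from the 3′ ends of transcripts. Values are given in CPM, counts scaled to library size with the TMM adjustment. The first principal component of all tested records, with 19.0% of their variance, set spt_cMO replicate 2, the shallowest library, at 0.83, and the other 9 libraries between -0.34 and 0.17. The targeted transcript *tbx16* averaged 526 CPM ± 100.3 in spt_cMO and 386 CPM ± 45.1 in control (SD, n = 5 each), with a log2 fold change of 0.45 (SE 0.13) that missed the threshold (edgeR's quasi-likelihood test, adjusted p = 0.0897) and passed with the replicate number as a block (adjusted p = 0.0172). A morpholino need not lower the transcript of its target, so this is a weak check of the labels. The sorted cells carried the paraxial mesoderm transcript *msgn1* at 2029 CPM ± 632 in spt_cMO and 5838 CPM ± 774 in control (SD, n = 5 each).

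Both receptor transcripts were lower in spt_cMO. *aplnra* was counted at 77.5, 91.5, 97.0, 89.8 and 93.7 CPM in spt_cMO libraries 1 to 5, against 169.6, 150.7, 132.8, 133.9 and 163.3 CPM in control libraries 1 to 5. The groups did not overlap, and the highest spt_cMO library, replicate 3, lay below the lowest control library, also replicate 3. *aplnra* averaged 89.9 CPM ± 7.46 in spt_cMO and 150.1 CPM ± 16.7 in control (SD, n = 5 each), 1.67-fold lower in spt_cMO. Its log2 fold change was -0.75 (SE 0.10), and it fell by edgeR's quasi-likelihood test (adjusted p = 0.000309, Benjamini-Hochberg over all tested records).

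*aplnrb* was counted at 222.8, 255.9, 242.4, 248.4 and 323.4 CPM in spt_cMO libraries 1 to 5, against 393.1, 357.5, 469.8, 391.8 and 416.7 CPM in control libraries 1 to 5. Again the groups did not overlap, although spt_cMO replicate 5 came close to control replicate 2, while the other 4 spt_cMO libraries lay well below every control library. *aplnrb* averaged 258.6 CPM ± 38.3 in spt_cMO and 405.8 CPM ± 41.5 in control (SD, n = 5 each), 1.57-fold lower in spt_cMO. Its log2 fold change was -0.65 (SE 0.11), and it too fell (edgeR's quasi-likelihood test, adjusted p = 0.00188). In libraries of many cells, fewer receptor-positive cells and less receptor RNA per cell cannot be told apart.

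**Figure D1:**
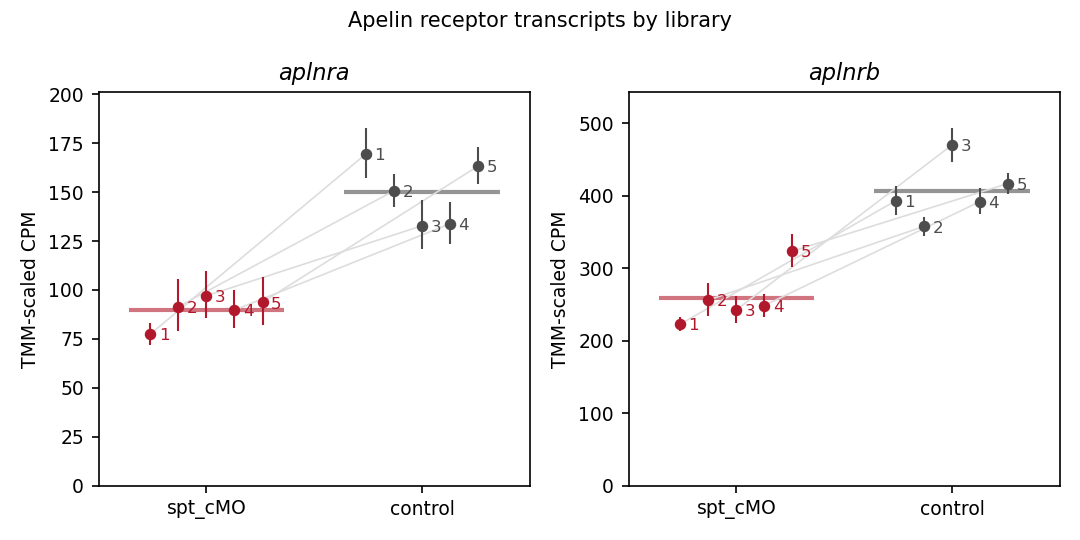
TMM-scaled CPM of *aplnra* (left) and *aplnrb* (right) in each library, spt_cMO in red and control in grey, with bars for 95% Poisson intervals of the counts, thick lines for group means, replicate numbers beside the points and thin lines between libraries of the same number. All 5 spt_cMO libraries lie below all 5 control libraries for both genes; for *aplnrb*, spt_cMO replicate 5 (323.4 CPM) lies nearest to the control range, whose lowest library is at 357.5 CPM.

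The decrease was seen in each pair of libraries with the same number, as it must be in any pairing where the groups do not overlap. Its size varied between pairs, and the order of the pairs was not the same for the paralogs. For *aplnra* the ratio of spt_cMO to control was 0.457, 0.607, 0.731, 0.670 and 0.574 in pairs 1 to 5. For *aplnrb* it was 0.567, 0.716, 0.516, 0.634 and 0.776. Pair 1 had the lowest ratio for *aplnra* and pair 3 for *aplnrb*, and pair 3 had the highest ratio for *aplnra*. Summed over both genes, receptor transcripts stood at 300.3 to 417.1 CPM in spt_cMO (median 339.4) and at 508.2 to 602.6 CPM in control (median 562.6), with a mean of 348.5 CPM ± 42.5 in spt_cMO and 555.8 CPM ± 38.7 in control (SD, n = 5 each).

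Among all 6570 tested records 64, or 0.974%, were lower in spt_cMO at an adjusted p under 0.05, and *aplnra* and *aplnrb* were both among them. In either direction 117 passed (1.78%). At an unadjusted p under 0.05 in the same test there were 620 of the 6570. By DESeq2 162 of 13008 records with any count passed, 80 higher and 82 lower. With the replicate number as a block 93 records, or 1.42%, were lower and 181, or 2.75%, changed in either direction. In 1.63% of tested records every spt_cMO library lay below every control library, as for both receptors. Ranked by adjusted p over all tested records, *aplnra* was at place 25 and *aplnrb* at place 41. By size of the decrease both stood in the lower part of the 64, at places 46 and 51. Both are well counted, and of 1258 tested records with a mean CPM at or above that of *aplnra*, 1.35% fell. The median absolute log2 fold change in those 1258 records was 0.08. The authors' deposited table listed 6923 records by a likelihood ratio test, and 248 had an adjusted p under 0.05, 121 of them lower. There *aplnra* had a log2 fold change of -0.74 (likelihood ratio test, adjusted p = 5.25e-07) and *aplnrb* one of -0.65 (adjusted p = 3.75e-07). By adjusted p *aplnrb* was at place 48 and *aplnra* at place 49. These p-values come from another test and filter than those above, so their sizes are not comparable. Of the fits made here, the nearest in number of calls joined a replicate block, a likelihood ratio test and a filter of CPM above 2. It tested 6923 records and called 245, 121 of them lower. Whether the authors' model held such a block was not tested.

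**Figure D2:**
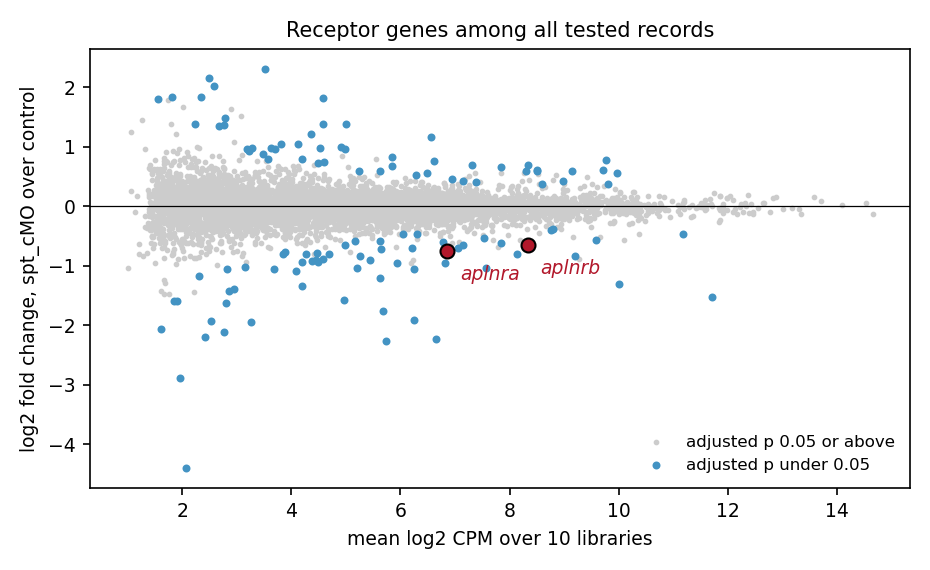
Log2 fold change of spt_cMO over control against mean log2 CPM over the 10 libraries for each of the 6570 tested records, with records at an adjusted p under 0.05 in blue, other records in grey and the receptor genes in red. *aplnra* (-0.75) and *aplnrb* (-0.65) lie below nearly all records of like abundance, and less abundant records reach larger fold changes.

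The change held without any single library. Leaving out each library in turn gave log2 fold changes between -0.79 and -0.69 for *aplnra* (highest adjusted p 0.00164) and between -0.75 and -0.59 for *aplnrb* (highest adjusted p 0.00991). Without spt_cMO replicate 2, the library that stood apart, they were -0.75 and -0.65. Within spt_cMO the deepest library, replicate 1, had the lowest value of both receptors, and without it the log2 fold changes were -0.69 for *aplnra* and -0.60 for *aplnrb*. Dixon's test at 5 libraries a group flagged no library for either gene, their sum or their ratio, but at this size it flags only wide gaps. Nearest to its critical gap over range of 0.71 were spt_cMO replicate 5 for *aplnrb* (0.67) and spt_cMO replicate 1 for *aplnra* (0.63).

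The question of whether one paralog changed more than the other was put to the split of counts within each library, which needs no scaling between libraries. The split compares tags as deposited; how well each paralog's 3′ end is captured and mapped was not known, so its absolute level is not a measure of relative transcript number. The count ratio of *aplnrb* to *aplnra* was 2.88, 2.80, 2.498, 2.77 and 3.45 in spt_cMO libraries 1 to 5, against 2.32, 2.37, 3.54, 2.93 and 2.55 in control libraries 1 to 5. The groups overlapped over most of their range, with the 2 lowest ratios and the single highest ratio all in control. *aplnra* made up 25.9% ± 2.21 of the counts of both receptors in spt_cMO and 27.1% ± 3.36 in control (SD, n = 5 each).

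On the log2 scale the ratio averaged 1.52 in spt_cMO and 1.44 in control, a difference of 0.08. An exact permutation of the libraries between the groups did not separate the groups (2-sided p = 0.571), and inverting that test gave a 95% interval of -0.28 to 0.40. Of the 5 same-numbered pairs 3 had the higher ratio in spt_cMO.

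**Figure D3:**
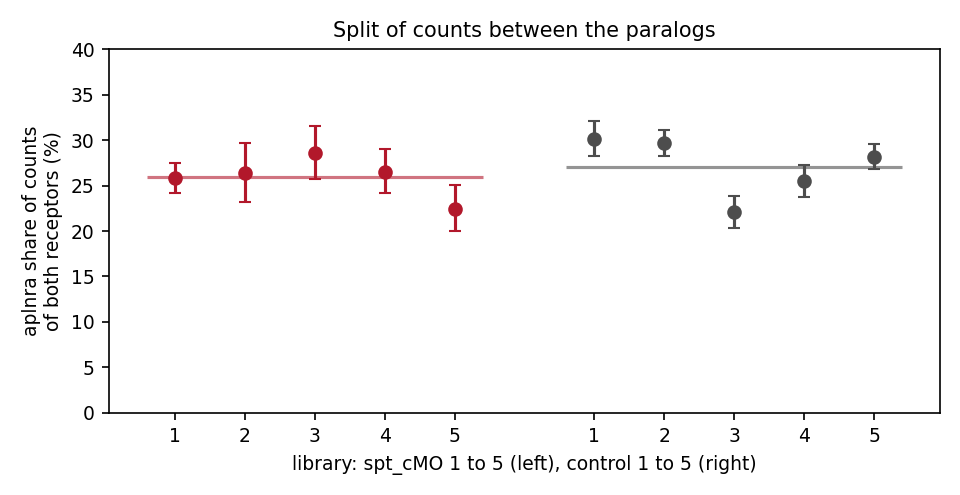
Share of *aplnra* among the counts of both receptors (%) in each library, spt_cMO 1 to 5 at left in red and control 1 to 5 at right in grey, with 95% Wilson intervals and lines at group means. The means are 25.9% in spt_cMO and 27.1% in control; spt_cMO replicate 5 (22.5%) and control replicate 3 (22.0%) have the lowest shares.

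The split varied between libraries of one group beyond counting error. The lowest share of *aplnra* in spt_cMO was 22.5% in replicate 5 (95% Wilson interval 20.0 to 25.1%), and the highest was 28.6% in replicate 3 (25.8 to 31.6%). In control the lowest was 22.0% in replicate 3 (20.3 to 23.9%) and the highest 30.1% in replicate 1 (28.3 to 32.1%). A chi-square of the split over the libraries came to 2.55 per degree of freedom in spt_cMO and 13.4 in control, where counting error alone gives about 1. The 2 libraries with low shares were those in which *aplnrb* was highest in its group, at 323.4 CPM in spt_cMO replicate 5 and 469.8 CPM in control replicate 3. A high *aplnrb* count lowers this share by construction. In control replicate 3 *aplnra* was also the lowest of its group, at 132.8 CPM.

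The spread of each gene tells how far its counts limit these values. *aplnra* had a coefficient of variation of 8.29% in spt_cMO, where counting alone gives 5.95%, and of 11.1% in control, where it gives 3.74%. For *aplnrb* the spread was 14.8% in spt_cMO against 3.52% from counting, and 10.2% in control against 2.24%. Only *aplnra* in spt_cMO, with 187 to 730 counts a library, came within 1.5 times its counting error. The biological coefficient of variation fitted by edgeR was 0.124 for *aplnra* and 0.130 for *aplnrb*, slightly below the trend at their abundance (0.146 and 0.138).

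With the group means removed, the paralogs did not vary together detectably from library to library. Over the 10 libraries Pearson's r of the deviations in log2 CPM was 0.10 (exact permutation within groups, 2-sided p = 0.783) and Spearman's rho 0.31 (exact permutation p = 0.395). Both p-values come from this single relation and are given unadjusted. Without spt_cMO replicate 1 and control replicate 3, the libraries farthest from the median of *aplnra*, r was 0.13 (exact permutation p = 0.661, 8 libraries). In spt_cMO replicate 1 both genes lay below their group mean, by 0.21 log2 units for *aplnra* and 0.20 for *aplnrb*. In control replicate 3 they lay apart, with *aplnra* at -0.17 and *aplnrb* at 0.22. The value of r rested on such single libraries: it was 0.43 without control replicate 3, -0.22 without spt_cMO replicate 1 and -0.04 without spt_cMO replicate 5.

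**Figure D4:**
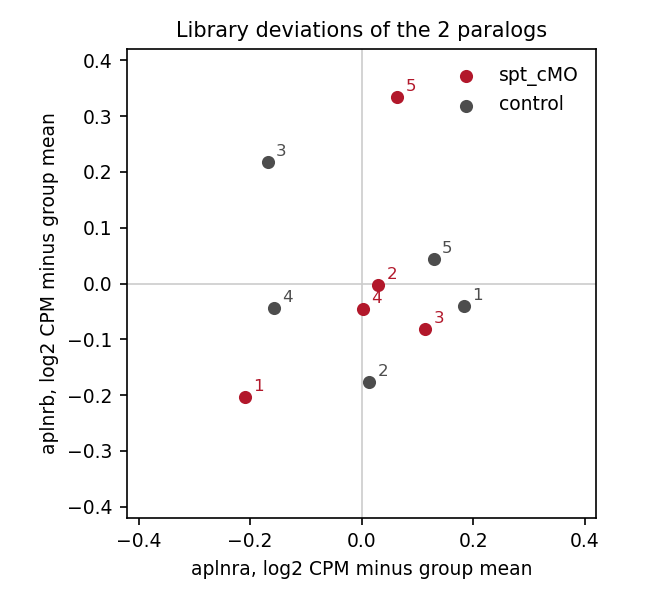
Deviation of each library from its group mean in log2 CPM, *aplnra* on the horizontal and *aplnrb* on the vertical axis, spt_cMO in red and control in grey, with replicate numbers. The points show no clear line (Pearson's r = 0.10, 10 libraries); spt_cMO replicate 1 is low for both genes, and control replicate 3 is low for *aplnra* and high for *aplnrb*.

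Across all 10 libraries, group difference included, the 2 paralogs had a Pearson r of 0.87 in log2 CPM. That placed each at rank 40 among the 6569 other tested records by likeness to its paralog. The records most like *aplnra* were the actin gene *actc1a* (r = 0.97), the acid-sensing ion channel gene *asic4b* (0.97), *ppp1r13ba* (0.95), the paraxial mesoderm gene *msgn1* (0.94) and the LIM protein gene *lima1a* (0.94). Those most like *aplnrb* were *igfbp1a* (0.97), which encodes an insulin-like growth factor binding protein, the calcium pump gene *atp2a2a* (0.96), the T-box gene *tbx16l* (0.96), the homeobox gene *six4a* (0.94) and the hyaluronan synthase gene *has2* (0.94). All 10 had a negative log2 fold change, from -0.31 for *lima1a* to -4.39 for *asic4b*, and all but *lima1a* (adjusted p = 0.0664) fell in the same test. In spt_cMO *asic4b* averaged 0.92 CPM and *ppp1r13ba* 1.39 CPM. There 3 counts equal 0.32 to 1.47 CPM, depending on the library, so the sizes of these folds are imprecise. These likenesses are descriptions over the same 10 libraries and include the difference between the groups.

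Of the ligand and peptide-processing genes, no ligand gene was tested, and the processing genes that were tested did not pass. The Apelin gene *apln* had 2, 2, 1, 0 and 1 counts in spt_cMO libraries 1 to 5, against 0, 2, 0, 1 and 5 counts in control libraries 1 to 5. No library but control replicate 5 exceeded 3 counts, the floor used here, so no fold is given. The gene *apela* was listed, but no record matched it by name, so it was not analysed here. Of 10 genes listed for ligands and their processing 6 had a record and 2 were tested. Neither passed by edgeR or DESeq2, and 0 had an unadjusted p under 0.05 by edgeR. Of all 6570 tested records 1.78% passed by edgeR and 620 had an unadjusted p under 0.05. *furina*, for the protease Furin, a processor of the Apelin precursor, averaged 11.98 CPM ± 2.59 in spt_cMO and 9.80 CPM ± 2.87 in control (SD, n = 5 each; log2 fold change 0.28, adjusted p = 0.799). The convertase gene *pcsk5b* averaged 3.77 CPM ± 1.88 in spt_cMO and 2.84 CPM ± 1.09 in control (adjusted p = 0.881).

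Tested transcripts for alpha subunits of G proteins, through which such receptors signal, were not detectably different. Of 17 listed alpha subunit genes 15 had a record and 8 were tested. None passed by edgeR or DESeq2, and 0 had an unadjusted p under 0.05 by edgeR. Of all 6570 tested records 1.78% passed by edgeR and 620 had an unadjusted p under 0.05. At that share 8 genes are too few for this count to set the list apart. Their median log2 fold change was 0.02, against 0.00 over all tested records. The inhibitory subunit gene *gnai2a* averaged 71.7 CPM ± 13.8 in spt_cMO and 78.2 CPM ± 7.90 in control (log2 fold change -0.12, adjusted p = 0.887). Another, *gnai1*, averaged 61.7 CPM ± 3.87 in spt_cMO and 60.2 CPM ± 7.78 in control (log2 fold change 0.03, adjusted p = 0.973), SD over n = 5 each in both cases. The Gq family gene *gna11b* had a log2 fold change of 0.01 (adjusted p = 0.994).

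Genes that switch such receptors off or shorten their signal numbered 25 on the list of receptor kinases, arrestins and RGS proteins, and 6 were tested. None passed by edgeR or DESeq2, and 2 had an unadjusted p under 0.05, against 620 of all 6570 tested records. The arrestin gene *arrb2a* averaged 67.2 CPM ± 20.2 in spt_cMO and 98.5 CPM ± 26.3 in control (SD, n = 5 each), with a log2 fold change of -0.55 (SE 0.22, adjusted p = 0.425). Its paralog *arrb2b* averaged 36.7 CPM ± 7.75 in spt_cMO and 31.9 CPM ± 2.63 in control (log2 fold change 0.22, adjusted p = 0.725). *rgs12b*, for a regulator of G protein signalling, had a log2 fold change of -0.85 (SE 0.31, adjusted p = 0.282), at 3.61 CPM in spt_cMO and 6.44 CPM in control. *rgs4*, of the same family, had one of 0.02 (adjusted p = 0.994), and *gpsm2* one of 0.16 (adjusted p = 0.921).

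Other receptors of the same broad family mostly did not pass. Of 52 listed 35 had a record and 19 were tested; 1 rose, 1 fell and 17 did not pass, where 0.807% of all tested records rose and 0.974% fell. In that list 5 had an unadjusted p under 0.05, against 620 of all 6570 tested records. By DESeq2 1 rose and 2 fell, where 80 rose and 82 fell of 13008 records with any count, a wider set than the 6570 tested by edgeR. The median log2 fold change of the 19 was 0.06. *s1pr1*, a receptor for sphingosine-1-phosphate, rose by 1.39 on the log2 scale (SE 0.12, adjusted p = 2.84e-06), and the Frizzled gene *fzd10* fell, with a log2 fold change of -0.93 (SE 0.17, adjusted p = 0.00499). The chemokine receptor gene *cxcr4a* averaged 67.3 CPM ± 10.1 in spt_cMO and 56.1 CPM ± 13.99 in control (adjusted p = 0.721), and the chemokine scavenger receptor gene *ackr3b* 73.9 CPM ± 14.1 in spt_cMO and 79.97 CPM ± 11.7 in control (adjusted p = 0.897). The Wnt receptor gene *fzd7b* had a log2 fold change of -0.56 (SE 0.15, adjusted p = 0.0850). Its paralog *fzd7a* had one of 0.10 (adjusted p = 0.959). Likewise abundant, *smo* had one of 0.11 (adjusted p = 0.959) and *lpar2a* one of 0.06 (adjusted p = 0.954).

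**Figure D5:**
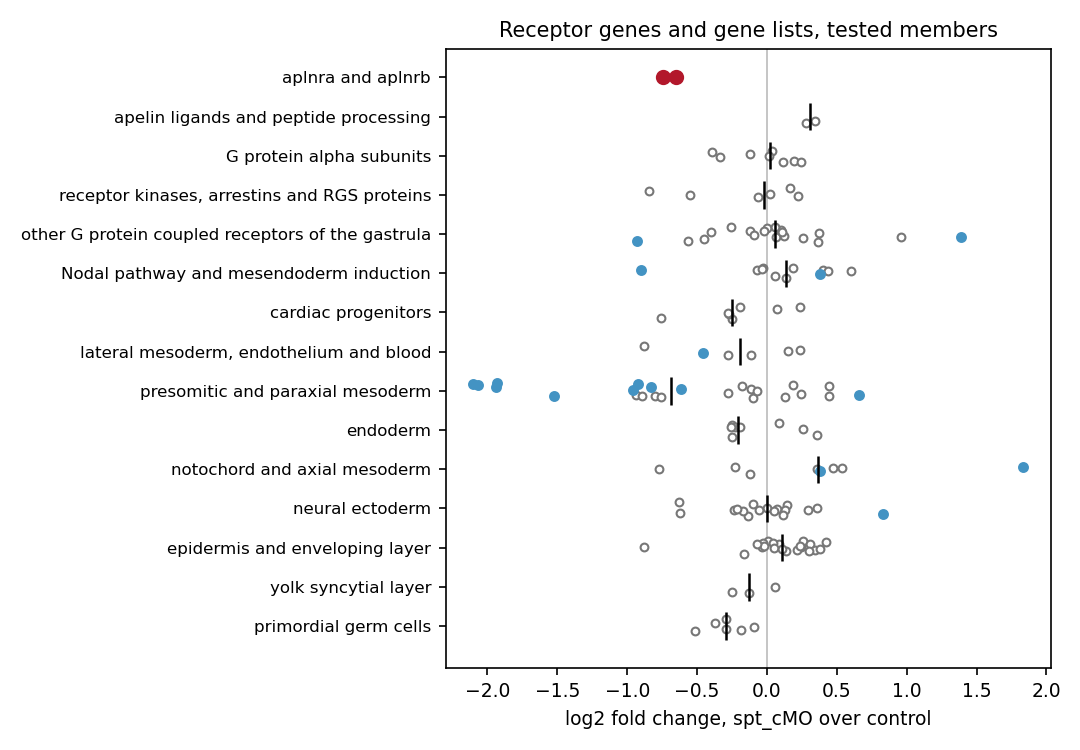
Log2 fold changes of spt_cMO over control for *aplnra* and *aplnrb* (red) and for the tested members of each gene list, filled blue where the adjusted p is under 0.05 and open elsewhere, with vertical bars at list medians. The receptor genes lie at -0.75 and -0.65, while the medians of the G protein (0.02), receptor shut-off (-0.02) and other receptor (0.06) lists lie near 0 and that of the paraxial mesoderm list lies at -0.69.

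Nodal signalling induces mesendoderm, the tissue in which apelin receptors act in the gastrula. Of 11 tested genes of that list 1 rose, 1 fell and 9 did not pass, where 0.807% of all tested records rose and 0.974% fell. The Nodal antagonist gene *lft1* averaged 32.4 CPM ± 6.78 in spt_cMO and 60.02 CPM ± 17.2 in control (SD, n = 5 each), with a log2 fold change of -0.90 (SE 0.21, adjusted p = 0.0432), and the brachyury gene *tbxta* had one of 0.38 (SE 0.09, adjusted p = 0.0440). Both calls lay near the threshold and were lost when most libraries were left out singly. The call of *lft1* was lost without any 1 of 8 libraries (adjusted p up to 0.126). The exceptions were spt_cMO replicate 5 and control replicate 1. The call of *tbxta* was lost without any 1 of 9 (adjusted p up to 0.148), the exception being spt_cMO replicate 2. In edgeR's blocked fit *lft1* (adjusted p = 0.000936) and *tbxta* (0.0222) both passed. By DESeq2 both passed too, *lft1* at an adjusted p of 0.00310 and *tbxta* at 0.00493.

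Marker transcripts of the cells that could carry the receptors were read beside them. Of 24 tested genes of presomitic and paraxial mesoderm, the labelled cell type, 9 fell, 1 rose and 14 did not pass, with a median log2 fold change of -0.69, where 0.974% of all tested records fell and 0.807% rose. Beside *msgn1* and *tbx16l*, those that fell were the forkhead genes *foxc1a* (log2 fold change -0.96) and *foxc1b* (-0.92), the bHLH gene *tcf15* (-1.94), the protocadherin gene *pcdh8* (-2.07), the segmentation gene *ripply2* (-2.10) and the hairy-related genes *her1* (-0.61) and *her11* (-1.93), with adjusted p between 6.79e-05 for *ripply2* and 0.0455 for *her1*. The largest of these folds rest on low counts. Per spt_cMO library *pcdh8* had 0 to 15 counts, *her11* 4 to 25, *ripply2* 5 to 29 and *tcf15* 9 to 20. The ligand gene *fgf8a* rose, at 289.4 CPM ± 41.2 in spt_cMO and 183.2 CPM ± 16.0 in control (SD, n = 5 each; log2 fold change 0.66, adjusted p = 0.00158). The call of *her1* was lost without any 1 of 8 libraries (adjusted p up to 0.132), the exceptions being spt_cMO replicate 5 and control replicate 3, and that of *pcdh8* without spt_cMO replicate 1 (adjusted p = 0.0612) or replicate 4 (0.0502). With the replicate number as a block 11 genes of the list fell and 3 rose, where 1.42% of all tested records fell and 1.34% rose. Added there were *mespab* and the retinoic acid synthesis gene *aldh1a2* (adjusted p = 0.0164) as lower and *tbx16* and *her12* (adjusted p = 0.00374) as higher. The summed level of that list ran from 3758 to 5609 CPM in spt_cMO and from 7503 to 9882 CPM in control. Most of that gap was *msgn1*: without it the sum ran from 2256 to 3072 CPM in spt_cMO and from 2618 to 3232 CPM in control, so the groups overlapped. The marker *wnt8a* was at 0 in every library. A record at 0 need not mean an absent transcript, here or for the markers at 0 named below. For the epidermal gene *tp63*, 1 record was at 0 in every library. Another averaged 71.8 CPM in spt_cMO and 59.4 CPM in control. The part of this list's shift in the receptor values was not tested.

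Apelin receptors are also known from heart, endothelial and endoderm precursors, and the summed levels of those lists overlapped between the groups. The median log2 fold change of tested genes was negative in all of them, against 0.00 over all tested records. It was -0.25 for the cardiac list, -0.19 for lateral mesoderm, endothelium and blood, and -0.21 for endoderm. Of 7 tested cardiac progenitor genes none passed by edgeR or DESeq2. At an unadjusted p under 0.05 by edgeR there was 1, against 620 of all 6570 tested records. The sum of that list ran from 218.4 to 297.5 CPM in spt_cMO and from 244.6 to 361.7 CPM in control, and *nkx2.5* was at 0 throughout. With the replicate number as a block, *mespab*, an early mesoderm factor, fell (adjusted p = 0.00386), where 1.42% of all tested records fell. Of 6 tested lateral mesoderm, endothelium and blood genes 1 fell and 5 did not pass, where 0.974% of all tested records fell. The gene that fell was *osr1*, a zinc finger factor of intermediate mesoderm (log2 fold change -0.46, adjusted p = 0.0394). That call was lost when any 1 of 7 libraries was left out (adjusted p up to 0.132), the exceptions being spt_cMO replicates 4 and 5 and control replicate 1. That list summed to 448 to 1053 CPM in spt_cMO and 714 to 1534 CPM in control, mostly from *gata2a*, also an epidermal gene, and *egfl7* and *drl* were at 0. None of 8 tested endoderm genes passed by edgeR or DESeq2, where 1.78% of all tested records passed by edgeR. At an unadjusted p under 0.05 by edgeR there were 0, against 620 of all 6570 tested records. The endoderm sum ran from 254.9 to 330.2 CPM in spt_cMO and from 251.5 to 355.4 CPM in control. The part of these cell types in the receptor values was not tested.

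Among markers of other embryonic cells, in the notochord list 2 of 8 tested genes rose, *tbxta* and the Hedgehog ligand gene *shha*, the second from low counts and without its call when spt_cMO replicate 1, spt_cMO replicate 3 or control replicate 4 was left out (adjusted p = 0.0673, 0.0621 and 0.0524). In the neural list *sox2* alone of 17 rose (log2 fold change 0.83, adjusted p = 0.000190), against the same 0.807% of all tested records. None of 21 tested epidermis and enveloping layer genes, 3 yolk syncytial layer genes or 6 germ cell genes passed by edgeR or DESeq2. At an unadjusted p under 0.05 by edgeR there were 3, 0 and 0, against 620 of all 6570 tested records. The summed levels of these 5 lists overlapped between the groups in each case. Single genes made up much of some sums: *apoeb* gave 98.97% of the yolk syncytial sum in spt_cMO and 98.99% in control, *tbxta* 71.8% of the notochord sum in spt_cMO and 69.7% in control, and *gata2a* 27.7% of the epidermal sum in spt_cMO and 45.3% in control. Without its most abundant gene, each of the 5 sums still overlapped between the groups. For the epidermal list that overlap was narrow. Without *gata2a* its sum ran from 1123 to 1510 CPM in spt_cMO and from 927 to 1189 CPM in control. The epidermal list, with *gata2a*, ran from 1457 to 2153 CPM in spt_cMO and from 1490 to 2537 CPM in control.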

How the data were processed

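RNA of 10 libraries of sorted zebrafish cells, 5 spt_cMO and 5 control, was sequenced by CEL-seq. The authors deposited raw counts, 1 row per RefSeq record. Alignment was to Zv8 with custom scripts in Galaxy, per the series' design text. The aligner, counter and use of strand are not given in the sources used here, nor are molecular identifiers mentioned, so intervals and floors (3 counts, 0.32 to 1.47 CPM) cover counting error only. The authors also deposited a comparison with log2 fold changes, a likelihood ratio score, p-values and adjusted p-values, made with edgeR per the submitters' processing notes.

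Records were named from RefSeq's gene table for GRCz12tu, with no use of its coordinates; 13986 of 14720 records matched. Reads shared between near-identical 3′ ends of the paralogs, if any, could have been split by the authors' counting. The analysis used edgeR 4.0.16 in R 4.3.3: filterByExpr (minimum count 10, minimum total 15, minimum proportion 0.7) left 6570 records, scaled by TMM and fitted with group by the robust quasi-likelihood test, 2-sided, called at an adjusted p under 0.05. Likeness and deviations used log2 CPM with prior count 2, and the paralog ratio a pseudocount of 0.5. DESeq2 1.42.0, other scalings and filters, a replicate block, thinning and leaving out each library were alternatives.

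The labels number libraries 1 to 5 in both groups. Over 6570 records, the deviation from the group mean correlated between the libraries of a number at 0.135, 0.251, 0.119, 0.203 and 0.147 from number 1 to number 5. Each exceeded 0.1, the level required here, so the numbers were taken as pairs in the block alternative. Correlations between libraries of different numbers were not computed, and the labels do not say what a number shares. The pairing is therefore an assumption.

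Members and gene lists were chosen with earlier results of these data known. Named were the members, *tbx16*, tested genes of the ligand and peptide-processing list, called genes and up to 5 of the most abundant of each list, and the 5 records most like each member. *cxcr4a*, *mespab*, *aldh1a2* and markers at 0 were named after their values were seen.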

Additional observations from a re-analysis of the deposited data

How the results depend on the processing

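*aplnra* and *aplnrb* kept their direction and their calls in all 19 alternatives each. Log2 fold changes ran from -0.79 to -0.69 for *aplnra* (adjusted p up to 0.00164) and from -0.75 to -0.59 for *aplnrb* (adjusted p up to 0.00991). With the replicate block they were -0.74 and -0.66, and this changed neither call. The number of called records, 117 in the main comparison, was 180 with the likelihood ratio test, 181 with the replicate block, and 245 with the block, that test and a filter of CPM above 2 in 5 libraries together; all 117 were among each. Without single libraries it ran from 84 to 126. The difference in log2 paralog ratio stayed between 0.01 and 0.18 in all 14 alternatives, and its p between 0.151 and 0.944; as 5 pairs in a replicate block it was 0.08 (exact sign flips p = 0.688, smallest possible 0.0625). The within-group r of the paralogs ran from -0.22 to 0.43 without single libraries, and its cause was not tested; exact permutation p was 0.241 or higher throughout. Removing replicate means as well left 5 independent values, too few for a correlation, and was not run. *apln* had too few counts for any comparison, while *aplnra* had 187 to 730 counts per spt_cMO library.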

Other observations

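With group means removed, the records whose library-to-library deviations were most like those of *aplnra* were *fam177a1* (r = 0.88), the deacetylase gene *sirt6* (0.88), the transcription factor gene *gtf2e1* (0.87), the spliceosome gene *snrpg* (0.87) and the replication factor gene *rfc2* (0.86). For *aplnrb* they were the peptidyl-prolyl isomerase gene *fkbp9* (0.90), zgc:175136 (0.88), the ketohexokinase gene *khk* (0.88), the protease gene *ctsc* (0.87) and the junction gene *f11r.1* (0.86). None of these 10 passed the main comparison of the groups (edgeR's quasi-likelihood test, adjusted p 0.254 or higher). With the replicate number as a block *fkbp9* was higher in spt_cMO (adjusted p = 0.0413). On this scale each paralog lay far down the other's order, at rank 2502 for likeness to *aplnra* and 2648 for likeness to *aplnrb* of 6569 records. These values are the extremes of many correlations over 10 libraries and are given as a description.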
